A study of Mus musculus with 56 samples.

Results

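Interferon-inducible genes are described here as a set of 39 mouse genes measured by RNA sequencing in the gastrocnemius, a calf muscle, under daytime and nighttime feeding. The members were taken by gene symbol from the 19072 genes of the expression table: all 39 had a row, and all 39 passed the filter of a mean of at least 1 CPM (the reads of a gene scaled to the size of its library) that 12024 genes met. They were put together with the regimen difference of these same libraries in view, so that difference, with the calls of the whole-table fit on it, is given below as a description that supports nothing. The tests are those of the course over the day within and between regimens. Those between regimens are built from the differences by time, so they are not independent of the choice of members.

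Interferons are secreted proteins that warn cells of viruses and other intracellular microbes. Type I interferons signal through Ifnar1 and Ifnar2 and the kinases Jak1 and Tyk2 to a complex that includes Stat2 and Irf9 and binds the interferon-stimulated response element. Interferon gamma has its own receptor, made of Ifngr1 and Ifngr2, and many genes it induces hold the gamma-activated site. The induced genes encode GTPases that attack the compartments of intracellular microbes, proteins that sense or block foreign nucleic acid, the ubiquitin-like protein Isg15 and its enzymes, and the peptide transporter of antigen presentation. A low basal level of many of them is found in tissues without infection.

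The mice were females of the C57BL/6J strain, 9 weeks old per the labels, under 12 h of light and 12 h of darkness. After 7 days of free feeding, food was given for 7 days in the light phase only (DRF) or in the dark phase only (NRF, the study's reference). Muscle was taken at zeitgeber time (ZT, hours from lights on) 0, 4, 8, 12, 16, 20 and 24 under both schedules, which makes 14 groups of 4 libraries (56 libraries). All groups were of this 1 strain, and all were food-restricted in the last week, so no group ate freely at collection. The labels do not say that the libraries came from separate mice, so p-values measure the spread between these libraries only. Recovered totals were 28172991 to 36183392 reads per library. Summed myofibre markers (8 genes, among them Ckm and Acta1) ran from 113050 to 245356 CPM over all libraries, and each library was muscle by that measure. Whole muscle holds several cell types, so fewer cells of a type and less RNA per cell cannot be told apart.

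To show what the members share in sequence, the 250 bases before the transcription start were taken from the RefSeq promoter table (build GRCm38.p6), which held 29 of the 39 members. These were searched on both strands for 4 motifs. The core of the interferon-stimulated response element, GAAANNGAAA, was found in 13 of the 29 members (44.8%) and in 3.46% of the 27025 genes of the table. The gamma-activated site, TTCNNNGAA, was found in 9 of the 29 (31.0%) and in 8.13% of all genes. The E-box CACGTG, the site of the clock activators, was found in 1 member, Trim25, and in 6.86% of all genes. The D-box TTATGTAA was found in no member and in 0.977% of all genes. A set of 7 members is printed because they carry the motifs in different arrangements or lead the results below, with the motif letters in capitals. Gbp7 (chr3:142530086-142530335, plus strand) holds a response element core and a pair of gamma-activated sites, and Gbp3 (chr3:142559794-142560043, plus strand) holds overlapping response element cores. Irgm2 (chr11:58214727-58214976, plus strand) has a gamma-activated site next to a core, and Isg15 (chr4:156200819-156201068, minus strand) has 3 overlapping cores. Ifit1 (chr19:34640639-34640888, plus strand) has 2 separate cores, Irf1 (chr11:53769764-53770013, plus strand) a gamma-activated site alone, and Trim25 (chr11:88999153-88999402, plus strand) the E-box alone.
Gbp7: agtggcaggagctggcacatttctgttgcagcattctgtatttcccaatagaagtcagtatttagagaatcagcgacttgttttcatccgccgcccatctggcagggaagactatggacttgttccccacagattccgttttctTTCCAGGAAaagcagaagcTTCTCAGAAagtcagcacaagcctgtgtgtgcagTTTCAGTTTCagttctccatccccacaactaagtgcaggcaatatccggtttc
Gbp3: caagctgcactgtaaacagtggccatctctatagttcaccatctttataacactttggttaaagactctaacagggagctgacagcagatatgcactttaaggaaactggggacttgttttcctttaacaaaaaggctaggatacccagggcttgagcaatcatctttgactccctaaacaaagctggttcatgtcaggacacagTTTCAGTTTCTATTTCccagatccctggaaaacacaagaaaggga
Irgm2: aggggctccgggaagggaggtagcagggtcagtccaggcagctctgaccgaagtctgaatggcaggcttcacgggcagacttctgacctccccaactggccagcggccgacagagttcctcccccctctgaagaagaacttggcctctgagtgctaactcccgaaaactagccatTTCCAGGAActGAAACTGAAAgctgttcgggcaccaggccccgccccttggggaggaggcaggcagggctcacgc
Isg15: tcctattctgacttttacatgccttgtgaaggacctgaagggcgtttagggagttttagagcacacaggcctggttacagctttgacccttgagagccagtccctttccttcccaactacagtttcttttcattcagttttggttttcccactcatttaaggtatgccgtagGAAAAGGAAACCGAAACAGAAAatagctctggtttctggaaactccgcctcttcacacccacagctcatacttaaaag
Ifit1: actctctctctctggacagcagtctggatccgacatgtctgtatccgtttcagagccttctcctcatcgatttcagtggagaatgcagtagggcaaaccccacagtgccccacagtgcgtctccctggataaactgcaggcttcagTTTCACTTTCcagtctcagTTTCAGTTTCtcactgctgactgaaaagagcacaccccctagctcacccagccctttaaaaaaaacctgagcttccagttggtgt
Irf1: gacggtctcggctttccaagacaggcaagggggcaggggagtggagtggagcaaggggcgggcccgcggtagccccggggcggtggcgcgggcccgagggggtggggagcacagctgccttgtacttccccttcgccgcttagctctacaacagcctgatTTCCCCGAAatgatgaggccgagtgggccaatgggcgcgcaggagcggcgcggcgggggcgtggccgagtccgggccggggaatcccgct
Trim25: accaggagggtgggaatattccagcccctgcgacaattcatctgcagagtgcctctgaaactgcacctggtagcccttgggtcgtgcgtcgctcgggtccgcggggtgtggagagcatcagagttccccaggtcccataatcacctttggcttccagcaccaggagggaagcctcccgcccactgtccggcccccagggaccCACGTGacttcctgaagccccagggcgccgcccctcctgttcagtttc
A match is a stretch of letters and not a measured binding site. None of the matches printed shares letters with a match to another motif, while in Bst2 a gamma-activated site and a core overlap. The 13 members with the core and the 16 without it had median day-mean differences, DRF minus NRF, of −0.17 and −0.12 on the log2(CPM + 1) scale.

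Expression of the members was low in this muscle. Mean levels ran from 1.30 CPM for Oas1a, a sensor of double-stranded RNA, to 27.6 CPM for Samhd1, which breaks down the nucleotides that viruses need for copying. Compared per length, the highest level was that of Ifi27 (11.6 CPM per kb), an interferon-induced mitochondrial protein. It was followed by Bst2 (9.87 CPM per kb), which tethers budding virus to the cell, Irgm2 (7.06 CPM per kb) and Igtp (6.81 CPM per kb). The lowest per length was Ifi44 (0.288 CPM per kb). Counts of 14 members held decimals, which shows reads shared with other genes, and their levels are uncertain: Gbp4, Gbp6, Gbp9, Gbp10, Ifit1, Ifit3, Parp9, Dtx3l, Oas1a, Xaf1, Iigp1, Igtp, Irgm2 and Eif2ak2. Several members are neighbours in the genome, as are Gbp7, Gbp3 and Gbp2 on chromosome 3, Gbp9, Gbp4, Gbp10 and Gbp6 on chromosome 5, and Ifit2, Ifit3 and Ifit1 on chromosome 19. Parp9 and Dtx3l overlap on chromosome 16, and the protocol names no step that keeps strand, so their reads may be mixed.

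Single libraries carried much of the variation. A member score was computed for each library as the mean over the 39 genes of log2(CPM + 1) minus the gene's own mean over the 56 libraries. The score was 1.01 in NRF ZT12 replicate 3 and 0.98 in NRF ZT0 replicate 2, and the next were 0.59 in NRF ZT8 replicate 4 and 0.41 in NRF ZT4 replicate 4. In DRF the highest score was 0.29, in ZT4 replicate 4, and the lowest score of all was −0.46, in DRF ZT12 replicate 1. The 4 highest libraries were all from night-fed mice, a description, since the members were chosen with the regimen difference in view. The median score was −0.012 in NRF and −0.095 in DRF. In NRF ZT12 replicate 3, 38 of 39 members stood above the other 3 libraries of the group, by a median of 2.01-fold over their mean. In NRF ZT0 replicate 2, 37 of 39 did, by a median of 1.67-fold.

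**Figure D1:**
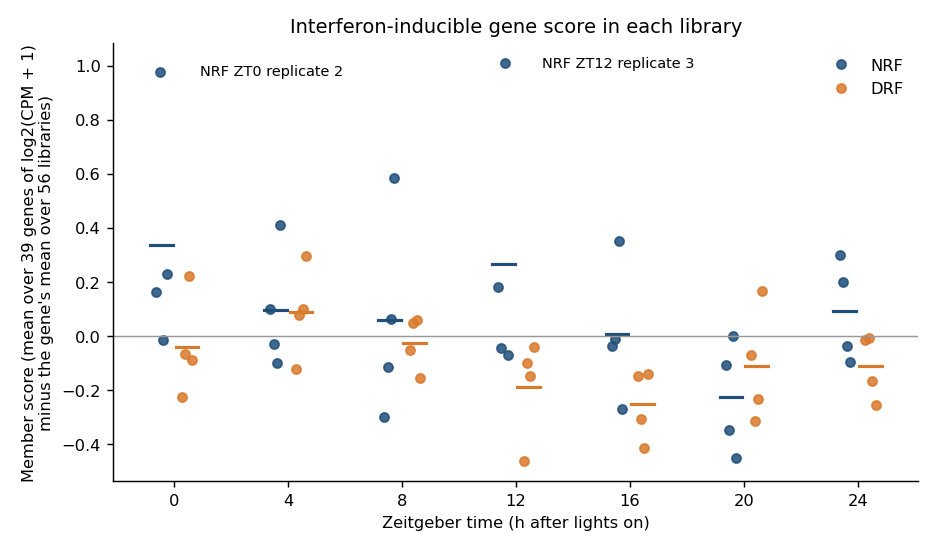
Member score of each of the 56 libraries (points) against zeitgeber time, NRF in blue and DRF in orange, with a bar at the mean of each group of 4. NRF ZT12 replicate 3 and NRF ZT0 replicate 2 lie at 1.01 and 0.98, above the other 54 libraries.

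The members led differently in these 2 libraries. In NRF ZT0 replicate 2 the GTPases Gbp4 and Iigp1 stood highest, Gbp4 at 65.7 CPM against 11.7 to 14.2 CPM in the other 3 libraries (5.14-fold over their mean) and Iigp1 at 45.2 CPM against 8.07 to 13.2 CPM (4.47-fold). Not all GTPases led there, as Irgm1 was 1.55-fold over the mean of the others. Rsad2, Tap1, Ifit2 and Ifit1 were 3.33-fold, 2.83-fold, 2.71-fold and 2.59-fold over it. Isg15, Irf7 and Oas1a were 2.54-fold, 1.62-fold and 1.48-fold over the mean of the others there. In NRF ZT12 replicate 3 Iigp1 was at 53.2 CPM against 6.01 to 10.1 CPM (6.10-fold), Oas1a at 6.29 CPM against 1.04 to 1.48 CPM (4.78-fold) and Isg15 at 7.99 CPM against 1.61 to 1.79 CPM (4.63-fold). Gbp4 was 2.12-fold over the mean of the others in that library. Rsad2 alone was not above its group there, at 7.80 CPM against 4.63 to 10.03 CPM, whereas in NRF ZT0 replicate 2 it was at 18.9 CPM against 5.33 to 6.17 CPM. In NRF ZT0 replicate 2 Ifi27 was below its group, at 15.5 CPM against 16.1 to 17.6 CPM, and Ifi35 within it, at 9.80 CPM against 8.73 to 10.7 CPM.

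Other measures moved with these libraries. The authors' library size was 1.21 times the recovered total in NRF ZT0 replicate 2 and 1.15 times in NRF ZT12 replicate 3, within a range of 0.854 to 1.21 over all libraries. Summed macrophage markers (8 of 8 genes with a mean of at least 1 CPM, 56.4 to 345 CPM in NRF and 69.1 to 289 CPM in DRF) were highest of the 56 libraries in NRF ZT12 replicate 3, at 345 CPM against 108 to 172 CPM in the others of its group. Summed fibroblast markers (5 of 5 genes, 758 to 3213 CPM in NRF and 851 to 2144 CPM in DRF) were also highest there, at 3213 CPM. So were satellite cell markers, at 35.9 CPM, and adipocyte markers ranked 4 of 56 at 583 CPM. Endothelial (219 CPM), smooth muscle (65.1 CPM) and red blood cell markers (255 CPM) were near the lowest in that library, at ranks 53, 54 and 54. T cell markers (0 of 7 with a mean of 1 CPM) summed to 1.88 CPM there, and over all libraries to 0.292 to 1.88 CPM in NRF and 0.282 to 1.62 CPM in DRF. Markers of natural killer and cytotoxic cells (0 of 6) summed to 0.661 CPM there and 0.452 CPM in NRF ZT0 replicate 2, within 0.033 to 0.661 CPM in NRF and 0 to 0.382 CPM in DRF. In NRF ZT0 replicate 2 the macrophage sum was 147 CPM, within the 111 to 166 CPM of its group, and myofibre markers were lowest of all libraries at 113050 CPM. Dendritic cell markers (1 of 5) were highest of all libraries there at 15.1 CPM, of which Zbtb46 alone made 13.0 CPM. The other genes of that list were each under 1 CPM there. Summed endothelial markers (6 of 6) were at 394 CPM in this library, against 333 to 380 CPM in the others of its group. The part of these cell types and of the library size in the member levels was not tested.

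**Figure D2:**
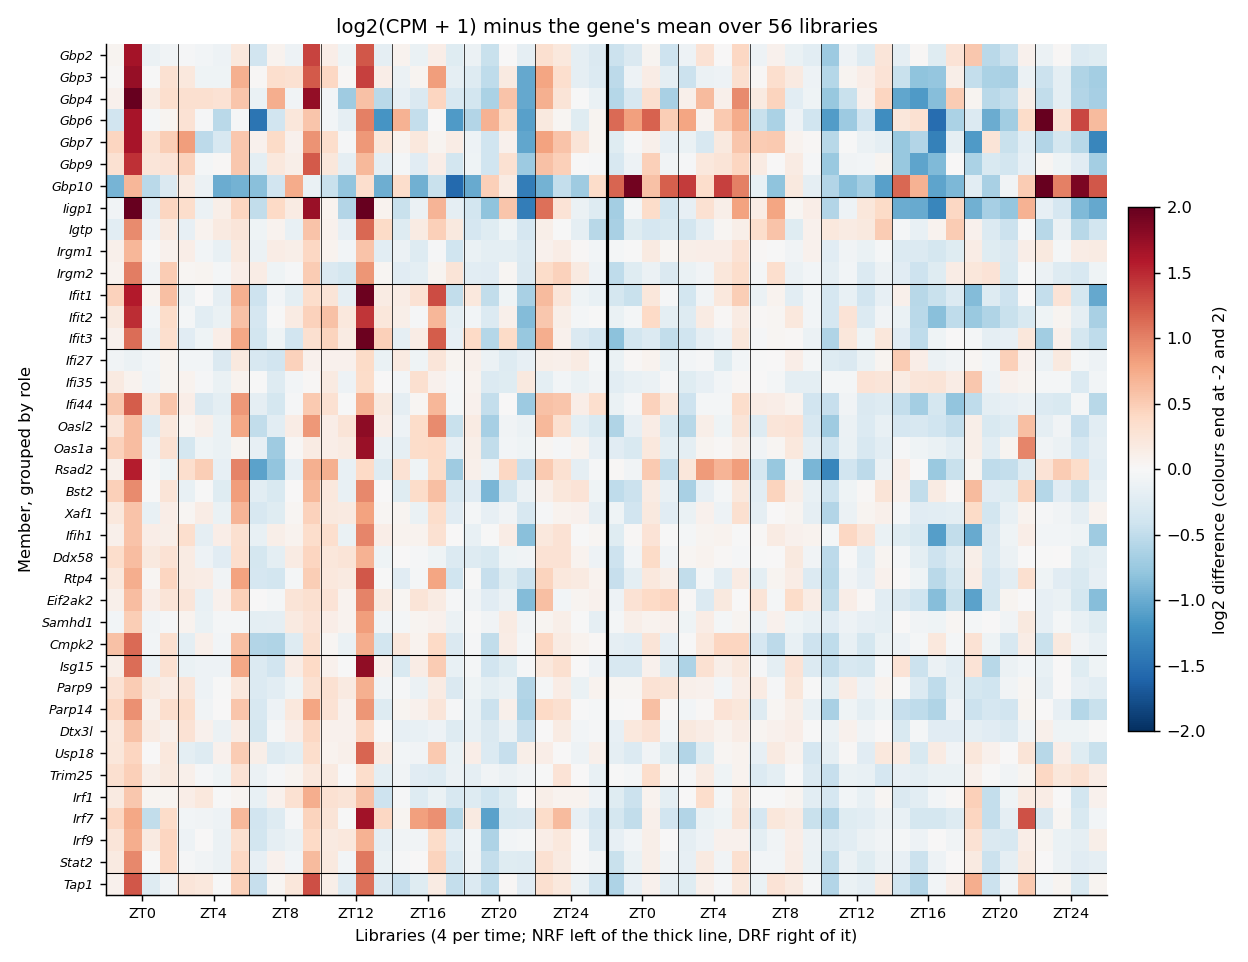
Each row is a member, grouped by role, and each column a library, 4 per time with NRF left of the thick line and DRF right of it. Red is above and blue below the gene's own mean of log2(CPM + 1) over 56 libraries. NRF ZT0 replicate 2 and NRF ZT12 replicate 3 form red columns through nearly all rows, while Gbp6 and Gbp10 are red in DRF at ZT0, ZT4 and ZT24.

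Across libraries of the same group the members varied together. After the group means were taken out, Pearson's r over the 56 libraries had a median of 0.61 over the 741 pairs of members, and 509 pairs were over 0.5. Without the 2 highest libraries the median was 0.49 and 361 pairs were over 0.5. The libraries share depth, scaling and cell makeup, so r is a description. Within groups the member score had r = 0.53 with the summed macrophage markers (0.47 without the 2 highest libraries), 0.41 with those of fibroblasts (0.39) and −0.40 with those of myofibres (−0.41). At sums of at most 1.88 CPM, r was 0.58 (0.37) for natural killer and cytotoxic cells, 0.43 (0.38) for T cells and 0.20 (0.21) for B cells. Adipocyte markers had 0.41 (0.29), dendritic cell 0.34 (0.17), satellite cell 0.29 (0.27), endothelial 0.24 (0.42) and neutrophil 0.13 (0.096). Schwann cell, smooth muscle and red blood cell markers had −0.051 (−0.079), −0.12 (0.041) and −0.14 (−0.067). The part of these cell types was not tested. The closest pair was Gbp3 and Iigp1 (r = 0.93), followed by Gbp2 and Tap1 (0.92), Oasl2 and Rtp4 (0.92) and Gbp3 and Gbp9 (0.91). Gbp6 and Gbp10, neighbours whose counts both held decimals, had r = 0.82. Gbp10 stood apart from the rest, with a mean r of 0.18 with the other members, and so did Ifi35 (0.27) and Ifi27 (0.32). The highest mean r was that of Stat2 (0.70), the factor that carries the type I signal to the nucleus, and then Gbp3 (0.69).

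Against the summed log2 level of the other members, 36 of 39 members had r over 0.5, and so did 255 other genes, 2.13% of those tested. The genes outside the set with the highest r were Nlrc5 (0.91), the activator of class I antigen presentation genes, Ifi47 (0.88), Sp100 (0.87), Phf11d (0.86), Psmb8 (0.85), a subunit of the immunoproteasome, H2-T23 (0.85) and B2m (0.84), the invariant chain of class I molecules. Without the 2 highest libraries these were 0.85, 0.79, 0.88, 0.81, 0.72, 0.76 and 0.77.

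On the average of the day, most members had a lower level in day-fed than in night-fed muscle. The difference, DRF minus NRF on the log2(CPM + 1) scale with ZT0 and ZT24 together counted as 1 time, was below 0 in 36 of 39 members with a median of −0.15, beside −0.0014 over all genes tested. At an adjusted p under 0.05, 10 members were called lower, where 7.53% of all genes were, and 1 was called higher, Gbp10, where 8.35% were (11 in either direction, all genes 15.9%). The members were chosen with this contrast known, so these counts, and the word called in the paragraphs on each family and each time, are a description and no evidence. The 10 were Gbp3, Gbp7, Gbp9, Ifit1, Ifit2, Ifi44, Parp14, Oasl2, Ifih1 and Eif2ak2. Without the 2 highest libraries 34 members were below 0, the median was −0.10, and the calls were 5 lower (Gbp3, Gbp7, Ifit2, Ifi44 and Parp14) and Gbp10 higher. Over all genes the calls also fell there, from 905 to 618 lower and from 1004 to 726 higher. With the recovered total as library size 17 were called lower and 1 higher, while the split over all genes moved from 905 lower and 1004 higher to 3302 lower and 196 higher. Leaving out DRF ZT16 replicate 3, DRF ZT20 replicate 1, NRF ZT8 replicate 4, NRF ZT12 replicate 3 or NRF ZT20 replicate 3 left 6 called lower, and leaving out all ZT24 libraries left 5. Of all genes, 617, 552, 901, 714 and 539 were called lower without these 5 libraries in turn, and 414 without ZT24. Red blood cell markers were called higher in DRF in 5 of 5 genes (median 0.55, summed 185 to 755 CPM in NRF and 262 to 1677 CPM in DRF), satellite cell markers were below 0 in 4 of 4 with 1 called lower (median −0.13, summed 16.8 to 35.9 CPM in NRF and 16.8 to 31.2 CPM in DRF), and 2 of 8 myofibre markers were called higher (median 0.10). No marker of the other cell types was called. Macrophage markers were below 0 in 2 of 8 (median 0.094) and adipocyte markers in 2 of 6 (0.038). Below 0 were also 3 of 5 fibroblast (−0.070), 5 of 6 endothelial (−0.061), 4 of 4 Schwann cell (−0.055) and 3 of 4 smooth muscle markers (−0.038). The 1 dendritic cell marker tested differed by −0.12. The part of the cell types in the difference was not tested.

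**Figure D3:**
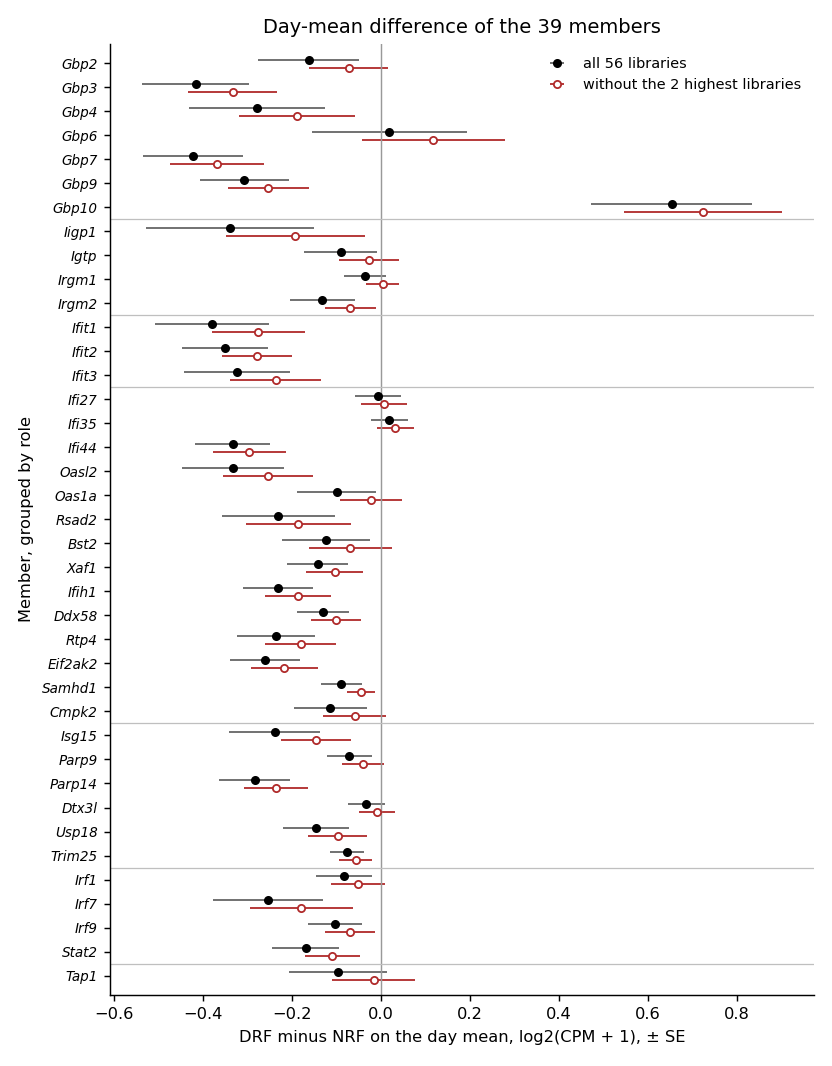
DRF minus NRF on the day mean in log2(CPM + 1), with its standard error, for each member, filled over all 56 libraries and open without the 2 highest. Gbp10 lies alone to the right at 0.65, and most other members lie left of 0, nearer to 0 without the 2 libraries.

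Among the guanylate-binding proteins, GTPases that coat and break microbial compartments, 5 of 7 were below 0 and the median was −0.28. Gbp7 (gene ID 229900, chromosome 3, 142530336 to 142550151) had 5.70 to 42.3 CPM in NRF with a median of 15.1, and 4.44 to 19.4 CPM in DRF with a median of 11.2 (n = 28 each). Its day-mean difference was −0.42 ± 0.11 (SE). Over all times the ranges overlapped, but at ZT0, ZT16 and ZT24 each DRF library was below each NRF library. At ZT24 the 4 NRF libraries had 23.2, 19.5, 15.5 and 13.3 CPM and the 4 DRF libraries 8.21, 9.80, 8.41 and 4.58 CPM. Gbp3 (gene ID 55932) had 2.40 to 22.2 CPM in NRF with a median of 6.32, and 2.96 to 7.67 CPM in DRF with a median of 5.21. Its difference was −0.42 ± 0.12, and −0.33 without the 2 highest libraries. Gbp4 had 4.87 to 65.7 CPM in NRF and 4.45 to 22.0 CPM in DRF, with a difference of −0.28 ± 0.15. Gbp2 differed by −0.16 ± 0.11 and was not called. Gbp10 and Gbp6 were above 0 and are described with the rhythms.

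The immunity-related GTPases, which act on the vacuoles of intracellular parasites, were all below 0, by −0.034 for Irgm1, −0.090 for Igtp, −0.13 for Irgm2 and −0.34 for Iigp1, and none was called. Without the 2 highest libraries Irgm1 lay at 0.0048. Iigp1 had 3.03 to 53.2 CPM in NRF with a median of 10.1, and 3.27 to 17.3 CPM in DRF with a median of 8.63. Its highest values were those of the 2 highest libraries by score, and its difference of −0.34 ± 0.19 was −0.19 without them. Irgm2, the most abundant of the family at 26.1 CPM, was called lower at ZT0, where NRF had 26.6, 52.6, 24.2 and 36.7 CPM and DRF 17.6, 21.2, 23.3 and 20.6 CPM, with no overlap.

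The 3 Ifit genes, whose products bind viral RNA, were all below 0. Ifit1 had 1.60 to 14.9 CPM in NRF with a median of 3.40, and 1.02 to 4.76 CPM in DRF with a median of 2.48, a difference of −0.38 ± 0.13. Ifit2 had 2.27 to 15.6 CPM in NRF with a median of 5.39, and 2.33 to 6.79 CPM in DRF with a median of 4.40, a difference of −0.35 ± 0.096. Ifit3 differed by −0.32 ± 0.12 and was not called. Without the 2 highest libraries the call of Ifit2 was kept and that of Ifit1 was not.

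Of the 14 sensors and effectors of the response to foreign nucleic acid, 13 were below 0 with a median of −0.14, and 4 were called lower. Ifi44 differed by −0.33 ± 0.085 with a median of 1.91 CPM and a highest value of 5.14 CPM in NRF, and 1.34 and 2.64 CPM in DRF. Oasl2, a homologue of the oligoadenylate synthetases, differed by −0.33 ± 0.11. Eif2ak2, the kinase that halts translation on double-stranded RNA, differed by −0.26 ± 0.079, and Ifih1, a sensor of long double-stranded RNA, by −0.23 ± 0.079. Ddx58, the sensor known as RIG-I, differed by −0.13 ± 0.058, and Rsad2, the antiviral enzyme viperin, by −0.23 ± 0.13. Both were uncalled, as were Rtp4 (−0.24), Xaf1 (−0.14), Bst2 (−0.12), Cmpk2 (−0.11) and Oas1a (−0.099). Samhd1, the member with the highest mean, had 23.9 to 49.9 CPM in NRF with a median of 27.0, and 22.9 to 31.5 CPM in DRF with a median of 26.3. It was called lower in DRF at ZT12, as was Trim25, and neither was without NRF ZT12 replicate 3. Ifi27 (−0.0059) and Ifi35 (0.019) differed least, and with the recovered total as library size Ifi35 and Gbp6 lay below 0 (−0.053 and −0.050).

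The 6 ubiquitin-like and ligase genes were all below 0. Parp14, an ADP-ribosyltransferase, was called lower at −0.28 ± 0.079, and Isg15, the ubiquitin-like modifier itself, differed by −0.24 ± 0.10 at 1.01 to 7.99 CPM in NRF and 0.715 to 2.23 CPM in DRF. Usp18, which removes Isg15 from proteins, differed by −0.15 ± 0.075, and Trim25, Parp9 and Dtx3l by −0.076, −0.070 and −0.032. The 4 transcription factors lay between −0.082 for Irf1 and −0.25 for Irf7, the factor that amplifies the type I response, with Stat2 at −0.17 ± 0.075 and Irf9 at −0.10 ± 0.060, and none was called. Tap1, which carries peptides to class I molecules, differed by −0.096 ± 0.11.

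The difference was not spread evenly over the day. The median over the members was −0.43 at ZT0, −0.043 at ZT4, −0.069 at ZT8, −0.44 at ZT12, −0.18 at ZT16, 0.11 at ZT20 and −0.24 at ZT24. The low medians at ZT0 and ZT12 fall at the times of the 2 highest libraries. Members called in either direction numbered 1 at ZT0 (all genes 1.85%), 0 at ZT4 (0.973%), 0 at ZT8 (0.208%), 2 at ZT12 (3.5%), 4 at ZT16 (10.8%), 0 at ZT20 (2.96%) and 3 at ZT24 (5.56%). By limma, 19 members at ZT0, 1 at ZT4, 1 at ZT8 and 20 at ZT12 had an unadjusted p under 0.05. At ZT16, ZT20 and ZT24 they numbered 8, 1 and 9. No share of all genes at that level is given beside these counts, so they too are a description and no evidence. The counts called rested on single libraries: with 1 library left out they ran from 0 to 1 at ZT0, 0 to 13 at ZT12, 0 to 5 at ZT16 and 1 to 3 at ZT24. At ZT0 the call of Irgm2 was lost without either of NRF replicates 2 and 4, any of DRF replicates 1, 2 and 4, or NRF ZT24 replicate 3. The count at ZT12 was 0 without NRF replicate 1 or 3 or DRF replicate 1 or 4, 1 without NRF replicate 2 or DRF replicate 3, 4 without DRF replicate 2 and 13 without NRF replicate 4. The 3 at ZT24 were Gbp7 and Ifi44, lower in DRF, and Gbp10, higher. They numbered 1 without DRF ZT24 replicate 4 or NRF ZT24 replicate 1. At ZT16 the members called were Gbp7, Ifi44, Ifih1 and Eif2ak2, all lower. None was left without DRF replicate 2 or 3 or NRF replicate 2, 3 or 4 of ZT16, and 1 without replicate 1 of either regimen.

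A test not used in the choice of members asked whether a gene followed a 24 h curve, by limma's moderated F test adjusted by Benjamini-Hochberg over 12024 genes. In NRF 1 of 39 members passed, Dtx3l, a ubiquitin ligase (adjusted p = 0.0417, fitted peak minus trough 0.33 on the log2 scale), beside 15.1% of all genes. Irgm1 (adjusted p = 0.0511) and Irf1 (0.0615) came next. The call of Dtx3l was lost when any of 12 NRF libraries was left out, with adjusted p up to 0.104. In DRF 13 of 39 members passed, 33.3%, beside 48.7% of all genes. They were Gbp6, Gbp7, Gbp9, Gbp10, Ifit2, Ifi35, Dtx3l, Rsad2, Igtp, Irgm1, Ifih1, Trim25 and Eif2ak2.

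Among the members called rhythmic in DRF the fitted peak lay between ZT0 and ZT8 in 10 of the 13, against 41.1% of all 5859 genes rhythmic in DRF. This window covers only a part of the light phase and was not planned before the fit, so the comparison is a description. The fitted peak lay near ZT1 for Gbp10 (0.97 h) and Gbp6 (1.18 h), at 1.80 h for Rsad2, 3.35 h for Irgm1, between 5.11 and 5.84 h for Gbp9, Dtx3l, Eif2ak2 and Ifit2, and at 6.51 h for Ifih1 and 6.59 h for Gbp7. Igtp peaked at 11.5 h, Ifi35 at 15.98 h and Trim25 at 23.9 h. The fitted peak minus trough ran from 0.35 for Dtx3l to 2.15 for Gbp10. Over all 39 members it was larger in DRF than in NRF in 23 (59.0%), against 70.8% of all genes. A call in one regimen and not in the other does not show a difference between them, which was tested directly.

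**Figure D4:**
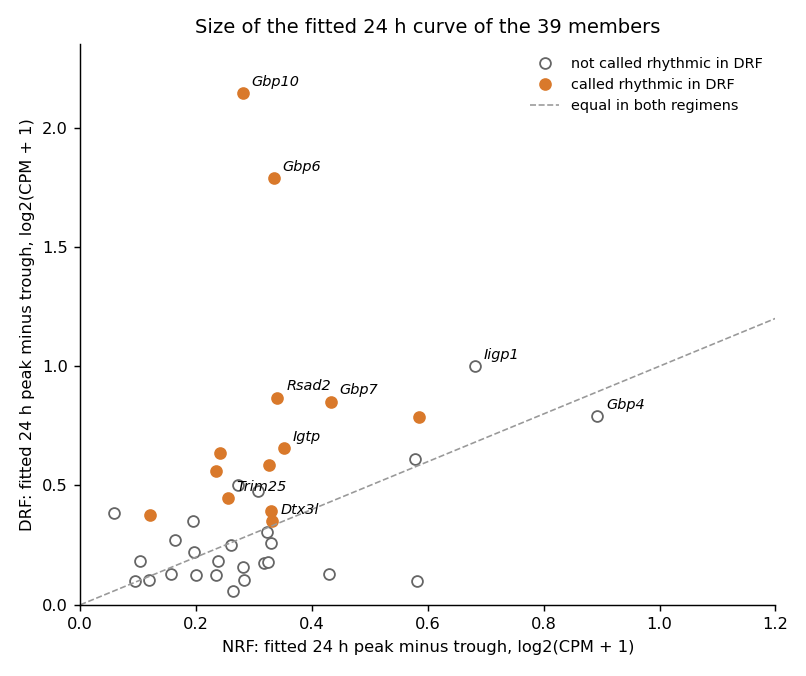
Size of the fitted 24 h curve, peak minus trough in log2(CPM + 1), in NRF (horizontal axis) and DRF (vertical axis) for the 39 members, filled where the DRF rhythm passed an adjusted p of 0.05. Gbp10 and Gbp6 lie at 2.15 and 1.79 in DRF with 0.28 and 0.33 in NRF, and the other members lie at or under 1.00 in DRF.

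The rhythm differed between the regimens in 2 of 39 members, Gbp10 (adjusted p = 0.00821) and Trim25 (adjusted p = 0.0391), beside 13.1% of all genes. The difference between the regimens also varied over the 7 times in these 2 members, with adjusted p of 0.0278 for Gbp10 and 0.0183 for Trim25 by limma, beside 10.3% of all genes. Both tests are built from the differences by time that were in view when the members were chosen, so neither is independent of that choice. Next in the rhythm test were Gbp6 (adjusted p = 0.0587) and Ifi35 (0.215), and next in the test over the 7 times were Oas1a (0.110) and Irgm2 (0.159). Both shares of members lie below those of all genes.

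Gbp10 (gene ID 626578, chromosome 5, 105215699 to 105239533), a guanylate-binding protein with uncertain counts, was high in DRF around the start of the light phase. In DRF the 4 libraries had 6.74, 12.2, 4.196 and 6.90 CPM at ZT0, 8.12, 3.43, 7.96 and 5.995 CPM at ZT4, 2.12, 0.983, 2.96 and 2.05 CPM at ZT8 and 1.31, 0.935, 1.17 and 0.631 CPM at ZT12. They had 6.68, 4.63, 0.660 and 0.847 CPM at ZT16, 1.99, 1.21, 2.298 and 3.92 CPM at ZT20 and 28.7, 5.95, 11.8 and 7.23 CPM at ZT24. All DRF libraries of ZT4 and ZT24 were thus above all NRF libraries of the same time, while at ZT8 and ZT12 the regimens overlapped. In NRF the values were 0.819, 4.48, 1.39 and 1.85 CPM at ZT0, 2.90, 2.19, 0.741 and 0.802 CPM at ZT4, 1.54, 0.996, 3.36 and 0.763 CPM at ZT12 and 0.788, 1.49, 1.11 and 3.46 CPM at ZT24. NRF had no value above 4.77 CPM at any time. The fitted peak minus trough was 2.15 in DRF (adjusted p = 1.17e-05) and 0.28 in NRF (adjusted p = 0.882), and the day mean was higher in DRF by 0.65 ± 0.18. The rhythm difference was lost without the ZT24 libraries (adjusted p = 0.0839) and on the log2 of the deposited values (0.0814), and lay at 0.0104 without the 2 highest libraries. The variation over the 7 times was lost without DRF ZT24 replicate 1 (0.0584) or NRF ZT24 replicate 1 (0.0528), and under 4 other settings with adjusted p up to 0.259.

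Gbp6 (gene ID 100702, chromosome 5, 105270702 to 105295871), its neighbour, followed the same course at a higher level. DRF libraries had 23.2, 18.5, 23.8 and 14.4 CPM at ZT0, 18.01, 10.6, 14.8 and 17.5 CPM at ZT4, 4.06, 5.67, 7.47 and 3.64 CPM at ZT12 and 49.2, 12.4, 26.8 and 16.1 CPM at ZT24. NRF libraries had 7.44, 33.6, 9.68 and 10.4 CPM at ZT0, 9.64, 8.70, 21.1 and 3.87 CPM at ZT12 and 11.6, 10.4, 8.33 and 10.4 CPM at ZT24. All DRF libraries at ZT24 were above all NRF libraries, and at ZT0 only NRF replicate 2 was above DRF. The DRF rhythm passed with a fitted peak minus trough of 1.79 (adjusted p = 8.19e-05), against 0.33 in NRF (0.771). The difference in rhythm did not pass over all libraries (adjusted p = 0.0587), and passed without the 2 highest (0.0445). The day means differed by 0.020 ± 0.175.

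Trim25 (gene ID 217069, chromosome 11, 88999403 to 89020294), a ubiquitin ligase that takes part in signalling from RIG-I, had its low point earlier in DRF. DRF libraries had 19.1, 18.9, 25.1 and 19.9 CPM at ZT0, 15.8, 16.7, 19.1 and 15.8 CPM at ZT8, 13.7, 17.6, 17.3 and 15.1 CPM at ZT12, 20.9, 19.3, 18.4 and 20.1 CPM at ZT20 and 26.1, 22.7, 24.1 and 21.6 CPM at ZT24. NRF libraries had 24.5, 27.3, 21.1 and 22.3 CPM at ZT0, 17.8, 19.04, 20.1 and 22.6 CPM at ZT8, 21.99, 19.6, 24.9 and 16.8 CPM at ZT12, 16.9, 18.5, 17.7 and 18.3 CPM at ZT20 and 19.3, 23.5, 19.4 and 17.3 CPM at ZT24. By group mean DRF was lowest at ZT12 and NRF at ZT16, and the regimens overlapped at all 7 times. The fitted peak minus trough was 0.45 with a peak at 23.9 h in DRF (adjusted p = 6.25e-05) and 0.25 with a peak at 4.06 h in NRF (0.0914). Its rhythm difference was lost when any of 17 libraries was left out, with adjusted p up to 0.0717, without the ZT24 libraries (0.197), without the filter (0.0540) and with the recovered total as library size (0.223). The variation over the 7 times was lost without the ZT24 libraries (0.102) and with the recovered total (0.163).

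**Figure D5:**
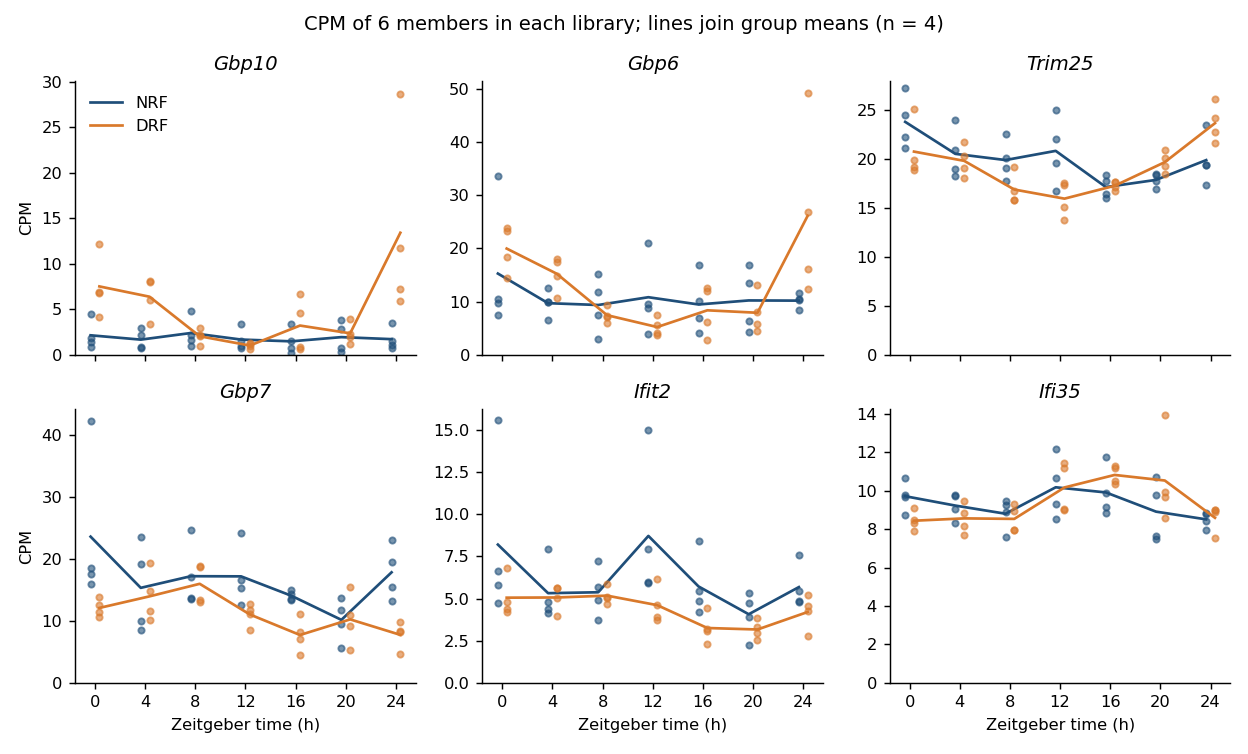
CPM of 6 members in each library (points) against zeitgeber time, with lines joining the means of the groups of 4, NRF in blue and DRF in orange. Gbp10 and Gbp6 are high in DRF at ZT0, ZT4 and ZT24, Trim25 is lowest at ZT12 in DRF and at ZT16 in NRF, and the high points of Gbp7 and Ifit2 in NRF include the 2 highest libraries.

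Other members with a DRF rhythm had smaller swings. Ifit2 had 3.95, 5.65, 5.01 and 5.65 CPM at ZT4 and 5.05, 5.08, 5.86 and 4.70 CPM at ZT8 in DRF, against 4.41, 3.10, 2.33 and 3.17 CPM at ZT16 and 2.56, 2.93, 3.34 and 3.83 CPM at ZT20. Its adjusted p of 0.0428 was lost without any of 11 DRF libraries, with values up to 0.0928. Gbp7 (adjusted p = 0.0208) had 18.7, 18.8, 13.5 and 13.04 CPM at ZT8 and 7.14, 8.18, 4.44 and 11.2 CPM at ZT16 in DRF, with no overlap between these times. Its rhythm was lost without DRF ZT16 replicate 3 (0.0507) or DRF ZT20 replicate 1 (0.0520). Ifi35, a partner of the interferon-induced protein Nmi, peaked in the dark phase, with 7.88, 8.30, 8.49 and 9.09 CPM at ZT0 and 10.5, 11.2, 11.3 and 10.3 CPM at ZT16 in DRF. Its adjusted p of 0.00127 became 0.299 with the recovered total as library size. Oas1a, which was not rhythmic, had 1.43, 1.48, 6.29 and 1.04 CPM at ZT12 in NRF and 0.655, 1.01, 0.767 and 0.913 CPM in DRF, with no overlap. Its adjusted p over the 7 times moved from 0.110 to 0.176 without the 2 highest libraries.

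ZT24 repeats the clock time of ZT0 on the next day. In NRF 38 of 39 members were lower at ZT24 than at ZT0 (median −0.25), and none passed by limma, beside 0% of all genes, with 4 members at an unadjusted p under 0.05. In DRF 23 of 39 were lower (median −0.040) and none passed, beside 0.274% of all genes, again with 4 at an unadjusted p under 0.05. These unadjusted counts have no share of all genes beside them and are a description. The voom method likewise called none in either regimen. The NRF ZT0 group includes replicate 2, the library with the second highest score.

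Per the authors' deposited table of rhythm tests on DRF, 10 of the 39 members had an adjusted p under 0.05, where 15.9% of the 16119 genes listed did. The share of members was thus above that of all genes in the authors' test, and below it by limma here (33.3% beside 48.7%). The smallest values in the authors' deposited table were those of Trim25 (1.04e-05), Irgm1 (6.48e-05), Gbp6 (1.09e-04) and Gbp10 (1.20e-04), and the phases given there for Trim25, Gbp6 and Gbp10 were 1 h. In the authors' deposited table on NRF none of the 39 was under 0.05, where 7.16% of genes were, and the lowest was Irgm1 at 0.229.

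Other genes of the pathway were listed under 99 symbols, 2 of them older symbols of genes listed again. They had 90 rows, of which 72 were tested. Of these 52 were below 0 on the day mean with a median of −0.054, and 8 were called lower (all genes 7.53%) and 1 higher (8.35%). A 24 h rhythm passed in 6 in NRF (all genes 15.1%) and 17 in DRF (48.7%). It differed between regimens in 1 (13.1%), and the regimen difference varied over the 7 times in 3 (10.3%). None of the 5 ligand genes with a row reached a mean of 1 CPM. Among the 5 receptor genes tested none was called on the day mean; Ifngr1 had a rhythm in NRF (adjusted p = 0.00891) and Ifngr2 in DRF (2.35e-04) by limma. Of the 10 kinases and factors, Jak2, a kinase of the interferon gamma receptor, was lower in DRF (−0.34 ± 0.099) and Irf3 was higher (0.12 ± 0.031).

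Among 6 inhibitors, Ptpn2, a phosphatase that acts on Jak kinases, was lower in DRF (−0.14 ± 0.047), its rhythm differed between regimens (adjusted p = 0.0233) and its difference varied over the day (0.0289). Socs1 and Socs3, feedback inhibitors of the receptors' kinases, also had a difference that varied over the day by limma, with adjusted p of 7.12e-05 and 0.0101. Of 33 other inducible genes outside the set 27 were below 0 (median −0.10), and 5 were called lower: Ifit3b (−0.40 ± 0.089), a near copy of Ifit3 whose reads may be shared, Gvin1 (−0.42 ± 0.14), Ifi203 (−0.35 ± 0.099), Herc6 (−0.30 ± 0.076) and Phf11d (−0.22 ± 0.077). Of 13 antigen processing genes 9 were below 0 with a median of −0.030 and 1 was called lower, Erap1 (−0.16 ± 0.040), the peptidase that trims peptides for class I molecules.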

How the data were processed

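The submitters' processing notes name HISAT2, Bowtie2, RSEM and the builds mm10 and GRCm38.p6, with no versions or order. The deposited expression values, given by the authors as TPM, are treated here as a score: each is a multiple of the natural log of 1 plus the scaled reads, over gene length, with each library scaled to a fixed sum. The formula was inverted to reads per gene, which came out whole (within 0.001 of a read) for 14836 of 17442 recovered genes. Decimals in the other 2606 mark shared reads. CPM are these reads scaled by the authors' library size. The authors' deposited rhythm tables hold adjusted p-values and phases under column names of MetaCycle.

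The log2(CPM + 1) values of 12024 genes with a mean of at least 1 CPM were fitted with limma 3.58.1 in R 4.3.3 over all 14 groups, with a mean trend of the variance and Benjamini-Hochberg adjustment over all genes at 0.05. ZT0 and ZT24 together counted as 1 time in the day mean, and rhythms were 24 h cosine curves with an intercept per regimen. The fit was tested on simulated data. Members described by sample were the 6 with the largest day-mean difference, the 4 with the smallest p in the rhythm difference, the 4 with the smallest p over times, the 4 with the widest spread and the 2 with the highest mean. The members and lists were chosen with earlier results of these data known. Other settings tried were other scalings, pseudocount, filter, covariates, weights and times, each library left out, and, chosen after seeing the data, voom and a fit without the 2 highest libraries.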

Additional observations from a re-analysis of the deposited data

Results flagged for a closer look

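Among 196 sets of 4 libraries (13 members described by sample and the member score, each in 14 groups), 7 had a library whose gap to the nearest other exceeded Dixon's 95% critical share of the range. Chance gives about 1 in 20 such sets. In NRF ZT0 replicate 2 Gbp7 was at 42.3 CPM (16.01 to 18.5 CPM in the other libraries), Gbp4 at 65.7 CPM (11.7 to 14.2 CPM) and Samhd1 at 38.8 CPM (26.2 to 26.8 CPM). In NRF ZT12 replicate 3 Oas1a was at 6.29 CPM, and the other libraries lay between 1.04 and 1.48 CPM. Gbp4 was at 16.6 CPM in NRF ZT4 replicate 4 (13.6 to 13.99 CPM in the others), and Iigp1 at 17.2 CPM in DRF ZT8 replicate 2 (9.81 to 10.7 CPM). Ifi35 was lowest in DRF ZT24 replicate 3, at 7.52 CPM against 8.88 to 8.98 CPM.

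The course over the day differed between the regimens, by limma's test of the difference itself, in Gbp10 (adjusted p = 0.00821 for the rhythm and 0.0278 over the 7 times) and in Trim25 (adjusted p = 0.0391 and 0.0183). Neither test is independent of the choice of members, which was made with the differences by time in view.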

How the results depend on the processing

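In 39 members the count with a rhythm in NRF, 1 as reported, was 3 with quantile scaling, 0 with total-count scaling, 2 with a pseudocount of 0.25 CPM, 4 on the log2 of the deposited values and 0 without a filter. It was 5 with 2 within-group components as covariates, 4 with library weights, 3 with the gene-length trend removed, 0 without ZT24, 3 without ZT0, 0 with voom and 4 without the 2 highest libraries. The count whose rhythm differed, 2 as reported, was 1 with total-count scaling, on the deposited values and without a filter, 0 without ZT24, and 3, with Gbp6 added, with the components, with weights and without the 2 highest libraries. The count varying over the 7 times, also 2, was 1 with total-count scaling, a pseudocount of 0.25 CPM, the deposited values and voom, 10 with the components, 5 with weights and 0 without ZT24. Of all 12024 genes, 1242 varied as reported, 5654 with the components, 3770 with weights and 869 without ZT24. A rhythm in NRF passed in 1820 genes as reported, 2950 with the components, 2241 with weights and 1565 without the 2 highest libraries. For the rhythm difference these were 1578, 3609, 2589 and 1570. No counts over all genes are given under these settings for single times or for ZT24 against ZT0. The 11 called on the day mean were 18 with total-count scaling, and 6 without ZT24 and without the 2 highest libraries. Those called lower were 17, 5 and 5 there, where all genes called lower, 905 as reported, were 3302, 414 and 618. Calls at single times, 1 at ZT0, 2 at ZT12, 4 at ZT16, 3 at ZT24 and 0 at ZT4, ZT8 and ZT20 as reported, were 4, 19, 7 and 8 with the components and 13, 4, 5 and 4 with weights at the first 4 of these times, and 1 at ZT4 with each. At ZT0 there were 0 on the deposited values, without a filter, without ZT24 and without the 2 highest libraries. At ZT12 there were 4 with total-count scaling, 0 without the 2 highest libraries, and 1 with quantile scaling, on the deposited values, without a filter, without ZT24 and with the gene-length trend removed. At ZT16 there were 0 without a filter and 2 with the gene-length trend removed, with voom and without ZT0. At ZT24 there was 1 on the deposited values. With each library left out they ran from 0 to 1, 0 to 13, 0 to 5 and 1 to 3. ZT24 against ZT0 gave 1 call in NRF and 4 in DRF with the components, which leave the estimates unchanged and reduce the residual spread. For the other settings the cause was not tested. With each library left out in turn the counts ran from 0 to 4 (rhythm in NRF), 9 to 18 (rhythm in DRF), 1 to 3 (rhythm difference), 1 to 3 (over the 7 times), 7 to 13 (day mean) and 6 to 12 (lower), and the median difference from −0.16 to −0.11. The rhythm count in DRF, 13 as reported, was 12 to 18 under the other settings. With the replicate number as a block the counts of rhythm in NRF and DRF, rhythm difference, variation, day mean and lower stayed at 1, 13, 2, 2, 11 and 10, and the call at ZT0 was lost (0). The numbers did not pair the libraries, with a mean correlation of −0.017 between same-numbered and 0.0058 between other libraries of different groups, and 8 of 56 libraries closest to their own number. Among the day-mean differences recomputed for members described by sample those of Gbp6 and Ifi35, uncalled and near 0, changed sign under some settings, and no called one did. Outside those members, Irgm1 (0.0048) and Ifi27 (0.0078), also uncalled, lay above 0 without the 2 highest libraries. Low levels limit Oas1a, Ifi44, Isg15 and Usp18, whose means were under 2 CPM. They also limit Gbp10 in NRF, where its mean was 1.85 CPM and its median 1.51 CPM.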
